A study of Mus musculus with 24 samples.

Results

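Acetylcholine acts on 2 unrelated families of receptors. Muscarinic receptors (Chrm genes) are G protein-coupled receptors, of which M1, M3 and M5 couple mainly to Gq and phospholipase C and M2 and M4 mainly to Gi and Go. Nicotinic receptors are ion channels of 5 subunits (Chrna and Chrnb genes) that open to cations, and in hippocampus the homomeric alpha7 channel and the alpha4-beta2 channel are the best known, with cholinergic input arriving from the medial septum and diagonal band. The 10 genes described here are the 5 muscarinic receptor genes (Chrm1 to Chrm5) and the nicotinic subunit genes Chrna3, Chrna4, Chrna5, Chrna7 and Chrnb2. They were taken by name as every non-control probe annotated with one of these symbols, which gave 11 of the 55681 non-control probes: 2 for Chrm1 and 1 for each other gene.

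Hippocampal mRNA was measured on 15 one-colour Agilent arrays from male C57BL/6 mice killed on postnatal day 9 (P9), with 5 arrays, each from a different pup, in each of 3 groups. Con pups had no morphine and stayed with the dam under minimal handling. From P5 to P9, MS2 pups were given 2 mg/kg and MS5 pups 5 mg/kg morphine, together with maternal separation and brief nitrogen and oxygen exposures that mimic apnea. No group had morphine without stress or stress without morphine, so in MS2 and MS5 the drug, the injections, the separation and the gas exposures cannot be told apart, and both comparisons with control use the same 5 Con arrays. Each RNA came from the pooled left and right hippocampi of 1 animal, and in such bulk tissue fewer cells of a type and less RNA per cell cannot be told apart. Values below are quantile-normalized log2 signals (the level of a probe), and a difference of 1 is a doubling of signal. Levels are compared between arrays for 1 probe, never between probes, because probes differ in binding.

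The probes on which the results turn are shown by the first 30 of their 60 bases, 5′ to 3′ as printed on the array and in lower case because no base is singled out. They are given so that the transcript stretch read by each value can be located.
Chrm1, first probe: tggtaagggaagttcccaaagcctaatgaa
Chrm1, second probe: ctctcatatactaggccaacactctacaaa
Chrm2: caaaaagacttttaagcacctccttatgtg
Chrna3: ctcaacagtgattgagatataagagatgag
Chrna4: gttagggcagaatgcttgatttaagacttt
Chrna7: cgagaattggggtcctaactctacattgtg
Chrnb2: tgggtatgttgtcactgttgaaaggtcaaa
On mouse build mm9, as the array annotation gives it, the first Chrm1 probe (A_52_P393577) lies at chr19:8755342-8755401 and the second (A_55_P2055262) at chr19:8758011-8758070, both on the plus strand and with starts 2669 bases apart. The Chrm2 probe lies at chr6:36474550-36474609 on the plus strand, and the Chrna3 probe at chr9:54859230-54859289, the Chrna4 probe at chr2:180757309-180757368, the Chrna7 probe at chr7:70244005-70244064 and the Chrnb2 probe at chr3:89557860-89557919 on the minus strand. Exon and UTR annotation of that build was not used here. In the RefSeq order of genes (GRCm38.p6), Chrna5, Chrna3 and Chrnb4 are direct neighbours on chromosome 9.

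Of the 11 probes, 9 were well above background on all 15 arrays and none was saturated. The Chrm5 probe was well above background on 1 of 15 arrays, a Con array, and the Chrna3 probe on 7 of 15 (2 Con, 1 MS2 and 4 MS5), so values of these 2 probes lie near the floor of the measurement. Median spot signal ran from 120.9 to 152.6 in Con, from 58.2 to 153.6 in MS2 and from 125.9 to 150.6 in MS5, where the low value in MS2 was replicate 5. One MS5 array (replicate 9, labelled male) had an Xist level of 11.34 against at most 6.08 on the other 14 arrays.

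One array stood apart in its regional markers and is described before the comparisons because most receptor values depend on it. On MS2 replicate 4, 9 of the 11 receptor probes lay outside the range of the other 14 arrays, where 30.2% of all probes on that array did. By the same measure the dim MS2 replicate 5 had 3 of 11 receptor probes and 27.6% of all probes outside. The remaining arrays had 8.5% to 14.6% of all probes outside. MS2 replicate 5 is kept where only MS2 replicate 4 is left out. The marker values that follow are those of MS2 replicate 4. The markers of hippocampal principal neurons, a list of 12 genes that includes Prox1, Neurod6 and Spink8, had a mean log2 level of 9.66 on that array against 11.32 to 11.77 on the others, and all 12 were below the range of the others. The thalamus list of 9 genes had a mean level of 11.62 against 9.74 to 10.77, with 7 of 9 above the others (Gbx2 and Slc17a6 among them), 1 below (Prkcd) and 1 within. The medial habenula list of 8 genes had a mean level of 9.57 against 8.22 to 8.60, with 6 of 8 above, 1 within (Tac1) and 1 below (Tac2, at 8.73 against 10.07 to 10.99). The markers of this array therefore go against its hippocampal label, and the counts of receptor probes and of marker genes are given with and without it. Neurod6, a transcription factor of pyramidal cells, read 10.02 on that array against 13.03 to 13.89 elsewhere.

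On MS2 replicate 4, the probes of Chrm1, Chrm3, Chrna5 and Chrna7 read lower than on any other array and those of Chrm2, Chrna3, Chrna4 and Chrnb2 read higher. The Chrm1 level was 9.09 by the second probe against 12.31 to 12.78 on the other arrays, a signal 11.3-fold below their median, and 6.17 by the first probe against 7.48 to 8.04. Chrm3 read 8.04 against 8.72 to 9.42, Chrna5 read 6.65 against 7.36 to 8.26 and Chrna7 read 7.03 against 7.89 to 8.55. In the other direction, Chrna4 read 11.75 against 9.37 to 10.34, which is 4.01-fold above the median of the others, and Chrm2 read 9.33 against 6.92 to 7.94. Chrnb2 (11.45 against 10.50 to 10.86) and Chrna3 (6.97 against 5.83 to 6.35) were also higher there than anywhere else, while Chrm4 and Chrm5 were within the range. Of the 11 nicotinic subunit genes outside the 10, Chrna6 read 10.44 against 7.24 to 7.98 and Chrnb4, the neighbour of Chrna3, read 8.51 against 7.65 to 8.15, so that within 1 gene cluster Chrna3 and Chrnb4 were high and Chrna5 was low on this array.

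**Figure D1:**
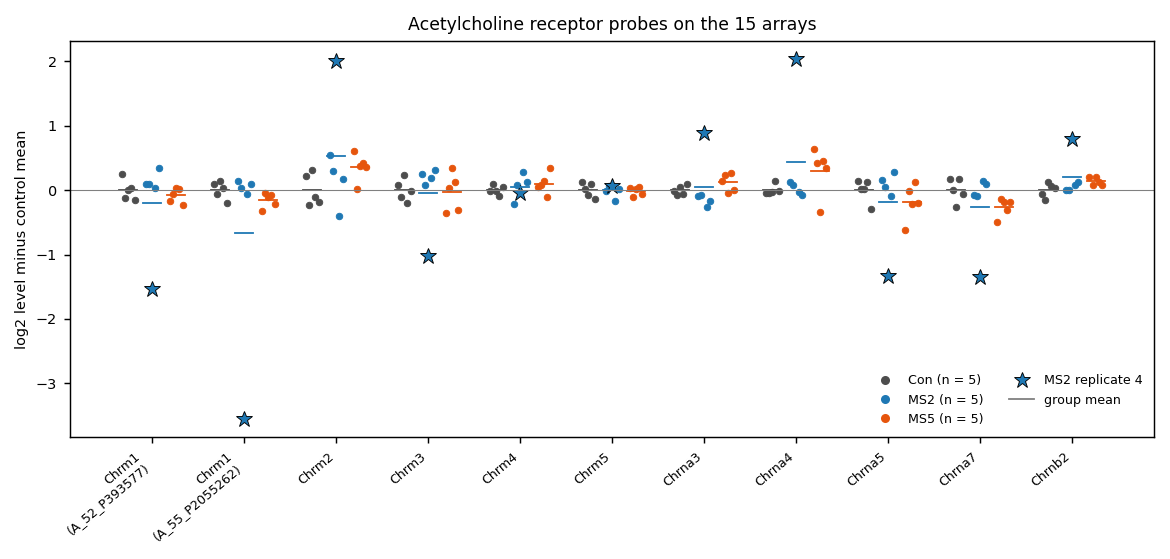
Log2 level of each receptor probe on each of the 15 arrays, as the difference from the mean of the 5 Con arrays (grey Con, blue MS2, orange MS5; short lines are group means, the star is MS2 replicate 4). The star lies outside the other 14 arrays for 9 of 11 probes, at 9.09 against 12.31 to 12.78 for the second Chrm1 probe, while the remaining points of all 11 probes lie between -0.62 (Chrna5) and 0.63 (Chrna4), both on MS5 replicate 8.

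With all 15 arrays, no receptor probe passed limma's test between groups. Exact permutation tests, not adjusted for the number of probes, gave p under 0.05 only in MS5 versus Con, for Chrnb2, Chrm2 and Chrna7. The exact permutation p was 0.0317 for Chrnb2 and 0.0476 for both Chrm2 and Chrna7. In limma's test, 0 of 11 probes had an unadjusted p under 0.05 in MS2 versus Con, in MS5 versus Con or in MS5 versus MS2, against 4.17%, 3.9% and 3.97% of all probes. The same held past the study's limit of a 1.5-fold change, which 0.0233%, 0.228% and 0.129% of all probes passed. By the deposited values, no receptor probe had groups that did not overlap, against 0.702%, 0.828% and 0.621% of all probes. With morphine dose as a number, 0 of 11 slopes passed an unadjusted p of 0.05, against 3.97% of all probes. The smallest Benjamini-Hochberg adjusted p of any receptor probe was 0.970 in MS2 versus Con and 1.00 in the other contrasts by limma. The median difference of the 11 probes was -0.01 in MS2 versus Con and -0.01 in MS5 versus Con, beside medians of -0.0017 and 0.00036 over all probes.

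That fit shares 1 estimate of the spread among the 3 groups, and MS2 replicate 4 widened it for most receptors. Without that array the standard error of the MS5 minus Con difference was 7.51 times smaller for the second Chrm1 probe, 2.48 times smaller for Chrna7, 2.42 times smaller for Chrna4 and 2.28 times smaller for Chrnb2, and it was nearly unchanged for Chrm4 (0.09 in both). Without it, 5 of 11 receptor probes had an unadjusted limma p under 0.05 in MS5 versus Con, where 5.92% of all probes did, and none exceeded 1.5-fold, where 0.28% of all probes did. These 5 were the second Chrm1 probe and Chrna7, lower in MS5, and Chrm2, Chrna4 and Chrnb2, higher in MS5, and with all arrays their limma p ran from 0.255 to 0.777. The smallest adjusted limma p among them was 0.619, so none passed correction over all probes. By the deposited values, no receptor probe had groups that did not overlap in this contrast, against 0.828% of all probes.

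**Figure D2:**
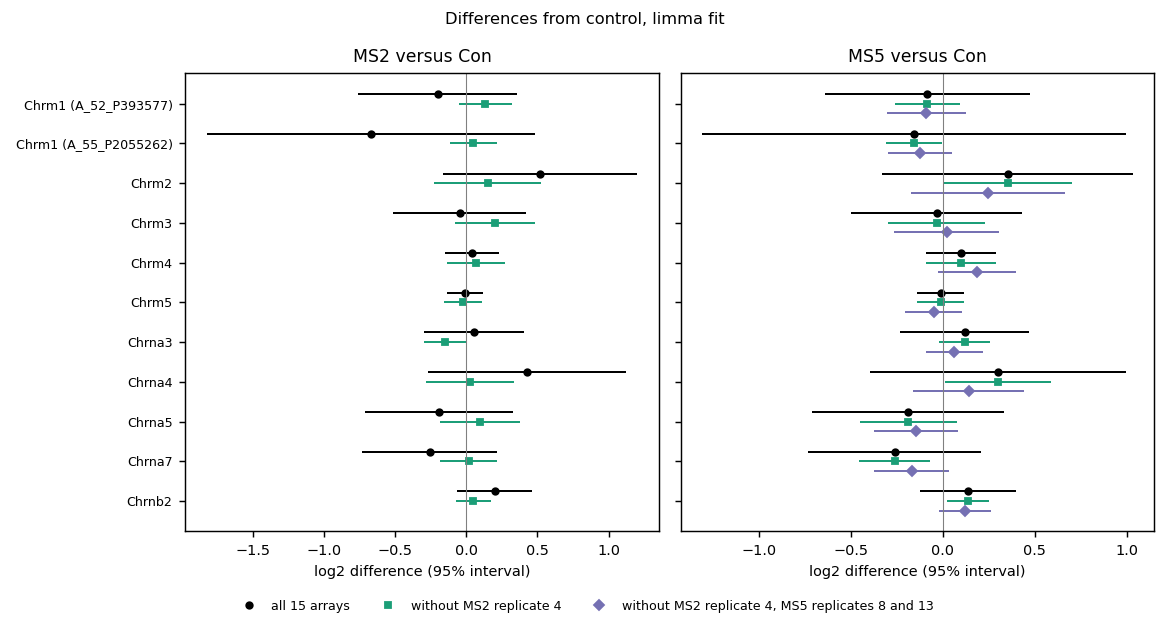
Difference in mean log2 level from Con with its 95% interval from limma, for MS2 (left) and MS5 (right), with all 15 arrays (black), without MS2 replicate 4 (green) and, for MS5, also without MS5 replicates 8 and 13 (purple). The black intervals all include 0, and the Chrna7 difference in MS5 is -0.26 with an interval of -0.45 to -0.07 in green and -0.17 with an interval of -0.37 to 0.03 in purple.

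Values per array below run from Con replicate 15 to 19, then MS2 replicates 1, 3, 4, 5 and 7, then MS5 replicates 8, 9, 12, 13 and 14, and these replicates have no order of their own. Chrm1 encodes the M1 receptor, the main muscarinic receptor of hippocampal pyramidal cells. By its second probe the level was 12.74, 12.58, 12.78, 12.67 and 12.43 on the Con arrays, 12.78, 12.67, 9.09, 12.58 and 12.74 on the MS2 arrays and 12.31, 12.60, 12.53, 12.56 and 12.43 on the MS5 arrays. The groups overlapped, with 2 of 5 MS5 arrays below the lowest Con array and 4 of 5 MS2 arrays close to the Con values. MS5 minus Con was -0.16 ± 0.07 (SE) without MS2 replicate 4, with a limma p of 0.048 (adjusted p = 0.838) and a two-sided exact permutation p of 0.0952. MS2 minus Con was -0.67 with all arrays and 0.05 without replicate 4, with a limma 95% interval of -0.11 to 0.21. By the first Chrm1 probe MS5 minus Con was -0.08, with a limma 95% interval of -0.26 to 0.09 without replicate 4.

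Chrm3, the other Gq-coupled receptor of hippocampal neurons in this set, read 9.16, 8.97, 9.31, 8.87 and 9.07 in Con, 9.32, 9.15, 8.04, 9.26 and 9.38 in MS2 and 8.72, 9.11, 9.42, 9.20 and 8.76 in MS5. The MS5 arrays spread across and past the whole Con range, with 1 above it and 2 below it, and the difference of -0.03 had a limma 95% interval of -0.30 to 0.23 without MS2 replicate 4. Chrm5, the M5 receptor known from midbrain dopamine neurons, read between 5.88 and 6.17 on all 15 arrays. No fold is given for Chrm5, since it was not well above background on any MS2 or MS5 array.

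Chrm2 encodes the M2 receptor, which acts as a presynaptic brake on acetylcholine release. It read 7.54, 7.10, 7.64, 7.22 and 7.15 on the Con arrays, 7.87, 7.62, 9.33, 6.92 and 7.50 on the MS2 arrays and 7.94, 7.34, 7.70, 7.75 and 7.68 on the MS5 arrays. Of the 5 MS5 arrays, 4 lay above the highest Con array and 1 lay inside the Con range. MS5 minus Con was 0.35, a 1.28-fold higher signal, with a two-sided exact permutation p of 0.0476 and, without MS2 replicate 4, a limma p of 0.0496 (adjusted p = 0.842). The 5 MS2 arrays spanned more than the other groups, from 6.92 on the dim replicate 5 to 9.33 on replicate 4, and without replicate 5 the MS2 minus Con difference was 0.75. That difference had a limma p of 0.0236 and an adjusted limma p of 0.742, in a setting where 6.58% of all probes had an unadjusted p under 0.05, and it includes replicate 4. Without replicate 4 it was 0.15, with a limma 95% interval of -0.22 to 0.52.

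Chrm4, the other Gi-coupled receptor, read 7.29, 7.40, 7.29, 7.21 and 7.36 in Con, 7.09, 7.38, 7.26, 7.59 and 7.44 in MS2 and 7.36, 7.39, 7.46, 7.20 and 7.65 in MS5. The 3 groups overlapped, and MS2 replicate 4 was inside the range of the other arrays. The MS5 minus Con difference was 0.10, with a limma 95% interval of -0.09 to 0.29.

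Chrna4 and Chrnb2 encode the subunits of the alpha4-beta2 channel, the high-affinity nicotine receptor of brain, which is dense in thalamus. The Chrna4 level was 9.66, 9.67, 9.68, 9.85 and 9.69 on the Con arrays, 9.83, 9.79, 11.75, 9.68 and 9.64 on the MS2 arrays and 10.34, 10.13, 9.37, 10.16 and 10.05 on the MS5 arrays. The Con arrays were tight (SD 0.08, n = 5), and 4 of 5 MS5 arrays lay above all of them while 1, replicate 12, lay below all of them. MS5 minus Con was 0.30, a 1.23-fold higher signal, with a two-sided exact permutation p of 0.127 and, without MS2 replicate 4, a limma p of 0.0432 (adjusted p = 0.822).

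Chrnb2 read 10.60, 10.50, 10.77, 10.71 and 10.68 on the Con arrays, 10.65, 10.65, 11.45, 10.73 and 10.78 on the MS2 arrays and 10.86, 10.73, 10.86, 10.78 and 10.73 on the MS5 arrays. Of the 5 MS5 arrays, 3 lay above the highest Con array. The SD was 0.11 in Con and 0.06 in MS5 (n = 5 each). MS5 minus Con was 0.14, with a two-sided exact permutation p of 0.0317 and, without MS2 replicate 4, a limma p of 0.022 (adjusted p = 0.721).

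Chrna7 encodes the alpha7 subunit of the calcium-permeable homomeric channel of hippocampal neurons. Its level was 8.55, 8.39, 8.12, 8.55 and 8.32 on the Con arrays, 8.31, 8.30, 7.03, 8.53 and 8.47 on the MS2 arrays and 7.89, 8.25, 8.20, 8.08 and 8.19 on the MS5 arrays. Of the 5 MS5 arrays, 2 lay below the lowest Con array and none above the Con median of 8.39. MS5 minus Con was -0.26, a 1.20-fold lower signal, with a two-sided exact permutation p of 0.0476 and, without MS2 replicate 4, a limma p of 0.0107 (adjusted p = 0.619) and a 95% interval of -0.45 to -0.07.

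The Chrna7 probe was printed on 10 spots per array, of which the deposited table carries 1, so its technical spread could be measured. The pooled SD of spots within an array was 0.15, the SD of the array means was 0.15 in Con and 0.12 in MS5, and from the spot means MS5 minus Con was -0.27. By these spot means all MS5 arrays (7.95 to 8.24) lay below all Con arrays (8.28 to 8.59), unlike by the deposited spots. Groups without overlap were seen for 0.828% of all probes by the deposited spots. With spots averaged and all arrays kept, 0 of 11 receptor probes had an unadjusted limma p under 0.05 in this contrast, against 3.91% of all probes. All 10 spots of MS2 replicate 4 read between 7.03 and 7.48, below the lowest spot of every other array (7.74, on MS5 replicate 8), so the low value there was not that of a single spot.

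**Figure D3:**
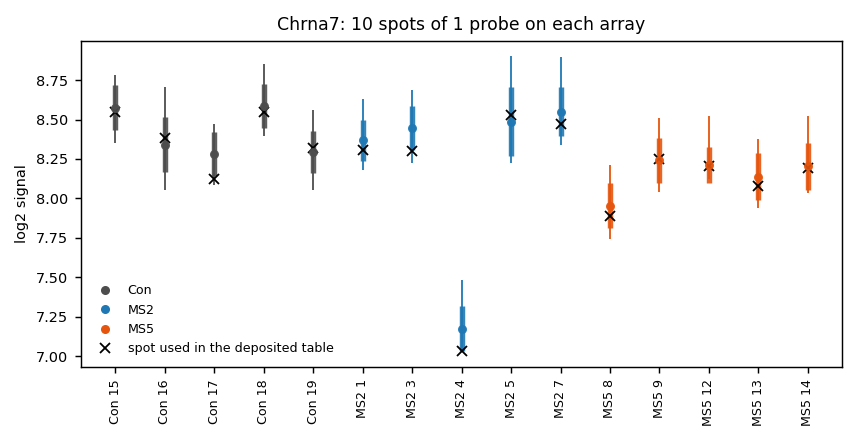
Log2 signal of the 10 spots of the Chrna7 probe on each array: dot and thick bar are the mean and SD of the spots, the thin line runs from the lowest to the highest spot, and the cross is the spot carried in the deposited table. MS2 replicate 4 runs from 7.03 to 7.48 and does not meet the spots of any other array.

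Chrna5 encodes an accessory subunit that joins other nicotinic subunits in mixed channels. It read 8.12, 8.00, 8.00, 8.11 and 7.68 in Con, 8.13, 8.03, 6.65, 7.89 and 8.26 in MS2 and 7.36, 7.96, 7.77, 8.11 and 7.77 in MS5. The groups overlapped apart from MS2 replicate 4 and the MS5 array at 7.36, and MS5 minus Con was -0.19, with a limma 95% interval of -0.45 to 0.08 without that MS2 array.

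Chrna3, a subunit best known from autonomic ganglia and the medial habenula, read 6.08, 6.03, 6.14, 6.04 and 6.19 in Con, 6.01, 6.02, 6.97, 5.83 and 5.92 in MS2 and 6.24, 6.33, 6.04, 6.35 and 6.10 in MS5. Without MS2 replicate 4 the other 4 MS2 arrays lay below all Con arrays and below all MS5 arrays, and none of these 4 was well above background. The only receptor probe with an unadjusted limma p under 0.05 in MS2 versus Con without replicate 4 was this one, against 4% of all probes, and it was also the only one whose groups did not overlap there, against 1.44% of all probes. Since the level in those 4 MS2 arrays is only a bound, no fold from Con is given. The Chrna3 differences printed in the section on processing show only how the sign depended on the setting.

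Between the doses, 5 of 11 probes had an unadjusted limma p under 0.05 without MS2 replicate 4, where 6.78% of all probes did, and the smallest adjusted p was 0.668. MS5 was lower than the 4 remaining MS2 arrays for both Chrm1 probes (differences of -0.22 and -0.21), for Chrna5 (-0.28) and for Chrna7 (-0.28). It was higher for Chrna3, but the probe was well above background on 0 of the 4 MS2 arrays and on 4 of 5 MS5 arrays. No fold between the doses is therefore given for Chrna3. For Chrna7 and Chrna3 these 2 groups did not overlap, as in 2.14% of all probes. The groups share the stress protocol, so by their labels they differ in dose alone, but this contrast rests on the same MS5 arrays as the comparison with Con. The groups were also not balanced over the 2 slides: without MS2 replicate 4, slide 2 held 3 of 5 MS5 arrays and, of MS2, only replicate 5. Of 12 choroid plexus markers, 9 were lower in MS5 at an unadjusted limma p under 0.05 in this contrast.

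Over the doses of 0, 2 and 5 mg/kg, slopes without MS2 replicate 4 passed an unadjusted limma p of 0.05 for 5 of 11 probes, against 6.37% of all probes. The slope in log2 units per mg/kg was -0.055 for Chrna7, 0.070 for Chrm2, 0.062 for Chrna4, -0.034 for the second Chrm1 probe and 0.028 for Chrnb2. The smallest adjusted p among these slopes, that of Chrna7, was 0.524 by limma. In none of these 5 did the 4 remaining MS2 arrays differ from Con by an unadjusted limma p under 0.05: their differences were 0.02 for Chrna7, 0.15 for Chrm2, 0.03 for Chrna4, 0.05 for the second Chrm1 probe and 0.05 for Chrnb2.

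The regional markers also varied among the MS5 arrays, in the direction seen on MS2 replicate 4. After that array, the thalamus list was highest on MS5 replicate 8 (10.77) and MS5 replicate 13 (10.44), against 9.74 to 10.09 in Con. The same 2 arrays had the highest Chrna4 levels of the remaining 14 (10.34 and 10.16) and the lowest Chrna7 levels (7.89 and 8.08), and replicate 8 had the highest Chrm2 level (7.94) and the lowest level of the second Chrm1 probe (12.31). Other MS5 arrays did not follow these markers: replicates 9 and 14 had Chrna4 levels of 10.13 and 10.05, above all Con arrays, with thalamus levels of 9.85 and 9.98, inside the Con range. The lowest principal neuron level in MS5 was on replicate 9 (11.32). With all arrays, none of the thalamus, habenula or principal neuron markers had an unadjusted limma p under 0.05 in MS5 versus Con. In the same contrast without MS2 replicate 4, 5.92% of all probes had an unadjusted limma p under 0.05. Of the 9 thalamus genes 2 did, both higher in MS5: Gbx2, a thalamic transcription factor, by 0.92 and Slc17a6, the vesicular glutamate transporter of thalamic neurons, by 0.39. Gbx2 had a median of 6.25 and a lowest value of 5.89 on the arrays other than MS2 replicate 4, so its difference starts near the floor of the measurement. Of the 12 principal neuron markers, Neurod6 (-0.28) and Fibcd1 (-0.38) were lower and Wfs1 (0.22) was higher by the same limma test. So were, of 8 habenula genes, Irx2 (0.51) and, of 10 interneuron markers, Sst (0.24), each a single gene of its list. Markers of another tissue also differed: with and without MS2 replicate 4, 11 of 12 choroid plexus markers had an unadjusted limma p under 0.05 and were lower in MS5. Of all probes, 3.9% and 5.92% had such a p. The mean level of that list was 9.15 on MS5 replicate 14, 10.14 on replicate 9 and 11.62 on replicate 13, against 11.95 to 12.90 in Con. It lay inside the Con range on MS5 replicates 8 (12.16) and 12 (12.37), so not all MS5 arrays were low. None of the 8 microglia markers and 1 of the 5 measured blood markers (Slc4a1, by -0.40) passed that test with or without MS2 replicate 4, and no interneuron marker passed with all arrays. Whether any of these lists had a part in the receptor values was not tested.

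Leaving out MS2 replicate 4 together with MS5 replicates 8 and 13, which leaves 3 MS5 arrays, 0 of 11 probes had an unadjusted limma p under 0.05 in MS5 versus Con, against 7.58% of all probes. In MS5 versus MS2, 3 of 11 did (the first Chrm1 probe, Chrna3 and Chrna5), against 8.83% of all probes. The differences in MS5 versus Con were then -0.17 for Chrna7 (95% interval -0.37 to 0.03), 0.14 for Chrna4 (-0.16 to 0.44), 0.25 for Chrm2 (-0.17 to 0.67), 0.12 for Chrnb2 (-0.02 to 0.26) and -0.12 for the second Chrm1 probe (-0.30 to 0.05). MS5 replicates 8 and 13 had the highest Chrna4 and lowest Chrna7 levels apart from MS2 replicate 4. Smaller differences of these genes without them therefore follow from the choice of arrays and say nothing on the markers. The 15 arrays lay on 2 slides, and slide 1 held Con replicates 15, 17 and 18 with MS5 replicates 8 and 13: within it Chrna4 differed by 0.52, Chrna7 by -0.42 and Chrm2 by 0.38, while within slide 2, which held MS2 replicate 4, they differed by 0.17, -0.14 and 0.45.

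**Figure D4:**
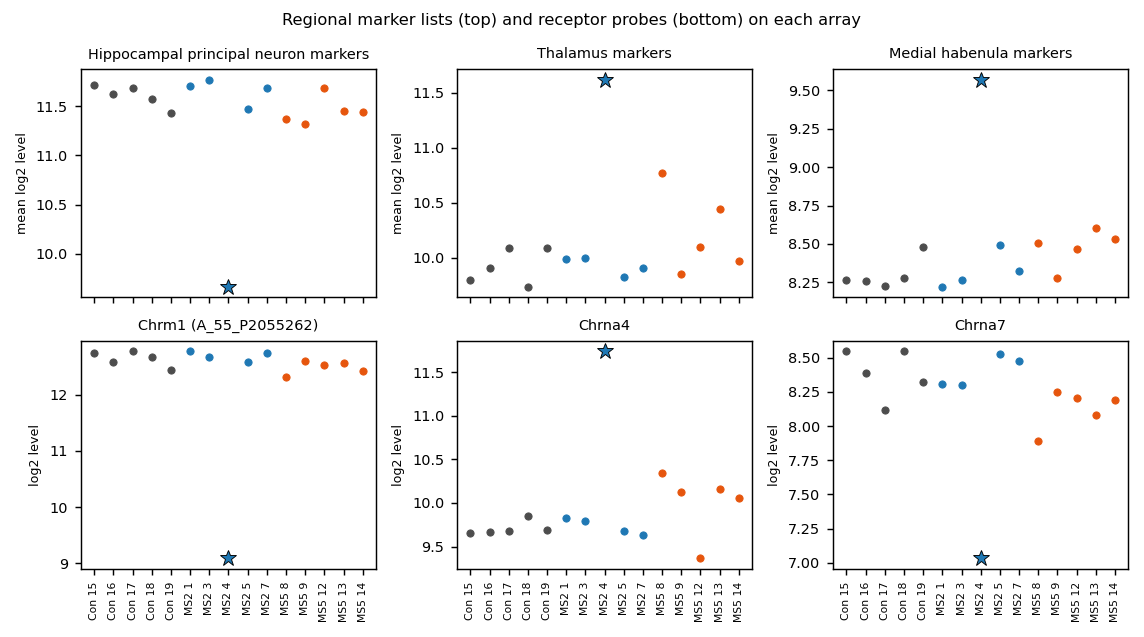
Mean log2 level of 3 regional marker lists (top) and log2 level of the second Chrm1 probe, Chrna4 and Chrna7 (bottom) on each array, in grey for Con, blue for MS2 and orange for MS5, with MS2 replicate 4 as a star. The star is lowest for principal neuron markers (9.66), Chrm1 and Chrna7 and highest for thalamus markers (11.62), habenula markers and Chrna4, and MS5 replicates 8 and 13 have the next highest thalamus levels.

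Other genes of the cholinergic system are given by list for MS5 versus Con with all arrays, where 3.9% of all probes had an unadjusted limma p under 0.05. None of the 11 other nicotinic subunit genes passed an unadjusted limma p of 0.05, with differences from -0.13 to 0.19 and a median of -0.03. None of the 9 genes of acetylcholine supply and removal passed (Chat, Ache and the choline and vesicular transporters among them), with differences from -0.63 to 0.67, and none of the 14 chaperones and modulators of nicotinic receptors passed. Of 24 measured genes of the muscarinic signal path, 1 was higher and 1 was lower by that test: Rgs4, which shortens Gq and Gi signalling, by 0.33 and Plcb2, a phospholipase C, by -0.11, both with an adjusted limma p of 1.00. The list of cholinergic neuron markers (Chat, Lhx8 and Isl1 among them) varied from 7.38 to 9.02 in mean log2 level among the Con arrays and from 7.35 to 9.36 among the MS5 arrays, and none of its 9 genes passed. Without MS2 replicate 4, the modulator gene Lypd6b (0.25) and, of the signal path, the receptor of inositol trisphosphate Itpr1 (-0.19) also had an unadjusted limma p under 0.05.

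Across the 15 arrays, the probe most like Chrna7 among 36278 probes well above background on every array was that of Foxo6 (Pearson r = 0.970, Spearman rho = 0.945), followed by Slc44a5, Grin2b, Islr2 and Zmat2 (r from 0.953 to 0.962). For Chrnb2 it was Fgfr1op (r = 0.960, rho = 0.707), followed by Mtap1a, Kcnc1, Fbln7 and Tmem22 (r from 0.941 to 0.952). These values rest in part on MS2 replicate 4. Without it and the next farthest array, r was 0.828 for Foxo6 with Chrna7 and 0.661 for Fgfr1op with Chrnb2 over 13 arrays. They are descriptions of likeness over arrays that share 1 normalization and carry no test.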

How the data were processed

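Total RNA of P9 hippocampus was hybridised by the authors to Agilent mouse 8x60K arrays, 1 animal per array. The deposited table holds log2 values that the authors made with normexp background adjustment and quantile normalization (the submitters' notes name RMA). Recomputed with an offset of 50 from the deposited scanner intensity values, the first spot of each probe equalled the table within 5e-09. No columns of other samples were present, and the 9 miR arrays were not used here. From the log2 values, limma 3.58.1 in R 4.3.3 was fitted over 55681 non-control probes with the 3 groups, or with dose as a number, and p-values were adjusted by Benjamini-Hochberg. Single probes were also compared by two-sided exact permutation tests, whose smallest p with 5 against 5 arrays is 0.00794. The number of arrays limits the precision. Every probe of the 10 genes was named, with values per array for the brightest probe of each gene, and genes of other lists were named at an unadjusted p under 0.05 in MS5 versus Con or where a result turned on them. The genes and lists were chosen with earlier results of these data known. Alternatives were other background and scaling settings, a filter on dim probes, array weights, slide, fewer groups, the mean of a gene's probes and leaving out arrays, 2 combinations of which were added after seeing the data. The fit was tested on simulated data.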

Additional observations from a re-analysis of the deposited data

Results flagged for a closer look

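In 10 of 33 sets of 5 arrays (11 probes in 3 groups), 1 array lay far from the other 4 by Dixon's test, where chance gives about 5% of sets. In MS2 it was replicate 4 for 8 of these: low for Chrm1 (6.17 by the first probe and 9.09 by the second), Chrm3 (8.04), Chrna5 (6.65) and Chrna7 (7.03), and high for Chrna3 (6.97), Chrna4 (11.75) and Chrnb2 (11.45). The same array had low principal neuron markers and high thalamus and habenula markers, and their part in these values was not tested. In Con, replicate 18 was high for Chrna4 (9.85) and replicate 19 was low for Chrna5 (7.68).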

How the results depend on the processing

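No receptor probe reached an adjusted p under 0.05 in any setting, and the smallest was 0.163 (MS5 versus Con within slide 1, which holds 2 MS5 arrays). The count of receptor probes at an unadjusted limma p under 0.05 went from 0 to 5 in MS5 versus Con and in MS5 versus MS2 and to 4 for the dose slope within slide 1 (7.79%, 8.3% and 7.78% of all probes), and to 3 in MS5 versus Con with only the 2 groups in the fit (5.76% of all probes). It stayed at 0 under the other background, scaling, weighting and gene-mean settings, within slide 2 and with slide as a block. Leaving out arrays, singly or in the 2 combinations added after seeing the data, it ran from 0 to 1 in MS2 versus Con, from 0 to 5 in MS5 versus Con and in MS5 versus MS2 and from 0 to 5 for the dose slope, and past 1.5-fold from 0 to 1 in MS2 versus Con (Chrm2 without MS2 replicate 5). The highest counts came without MS2 replicate 4. The paper states that treated pups went back overnight to untreated littermates and that experiments were repeated. The sample labels used here give no litter or run, so no paired analysis was possible. Pups were treated as independent, and any likeness between littermates could not be taken into account.

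Single differences changed sign, none of them past an unadjusted limma p of 0.05 with all arrays. Of those in this paragraph, MS5 minus MS2 of both Chrm1 probes and of Chrna4 was past it after the change, within slide 1. With array weights MS2 minus Con turned to 0.075 for the first Chrm1 probe, 0.13 for Chrm3, -0.010 for Chrm4, 0.016 for Chrm5, -0.079 for Chrna3 and 0.070 for Chrna5 and MS5 minus MS2 to -0.18 for the first Chrm1 probe, -0.087 for the second Chrm1 probe, -0.21 for Chrm3, 0.19 for Chrna4, -0.26 for Chrna5 and 0.062 for Chrnb2. Within slide 1 MS2 minus Con turned to 0.076 for the first Chrm1 probe, 0.17 for Chrm3, -0.11 for Chrna3, 0.065 for Chrna5 and -0.0021 for Chrnb2, MS5 minus Con to 0.0012 for Chrm5 and MS5 minus MS2 to -0.25 for the first Chrm1 probe, -0.29 for the second Chrm1 probe, 0.18 for Chrm2, -0.32 for Chrm3, -0.023 for Chrm4, 0.022 for Chrm5, 0.49 for Chrna4, -0.41 for Chrna5 and 0.13 for Chrnb2. Within slide 2 MS2 minus Con turned to 0.014 for Chrm5, MS5 minus Con to 0.054 for the first Chrm1 probe, 0.012 for the second Chrm1 probe, 0.076 for Chrm3 and 0.018 for Chrm5 and MS5 minus MS2 to 0.0036 for Chrm5, -0.24 for Chrna3 and 0.44 for Chrna7. With slide as a block MS5 minus Con turned to 0.0054 for Chrm3 and 0.0076 for Chrm5 and MS5 minus MS2 to 0.015 for Chrm5 and 0.022 for Chrna7. With a normexp offset of 0 MS2 minus Con turned to -0.15 for Chrna3 and MS5 minus MS2 to 0.0049 for Chrm5. With the processed signal scaled to the 75th percentile MS2 minus Con turned to 0.027 for Chrm5 and -0.16 for Chrna3. The differences of Chrm5 and Chrna3 are those of signals near the floor and show only how the sign depended on the setting. The cause of these changes was not tested.

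Leaving out arrays also changed signs, and without MS2 replicate 4 the reversed MS5 minus MS2 of both Chrm1 probes and Chrna5 and the reversed MS2 minus Con of Chrna3 were past an unadjusted limma p of 0.05. MS2 minus Con ran from -0.33 to 0.14 for the first Chrm1 probe, from -0.87 to 0.051 for the second Chrm1 probe, from -0.13 to 0.20 for Chrm3, from -0.017 to 0.11 for Chrm4, from -0.043 to 0.032 for Chrm5, from -0.15 to 0.13 for Chrna3, from -0.31 to 0.095 for Chrna5 and from -0.36 to 0.017 for Chrna7. MS5 minus MS2 ran from -0.22 to 0.25 for the first Chrm1 probe, from -0.23 to 0.72 for the second Chrm1 probe, from -0.40 to 0.29 for Chrm2, from -0.25 to 0.099 for Chrm3, from -0.0076 to 0.12 for Chrm4, from -0.043 to 0.035 for Chrm5, from -0.016 to 0.27 for Chrna3, from -0.25 to 0.27 for Chrna4, from -0.32 to 0.12 for Chrna5, from -0.31 to 0.095 for Chrna7 and from -0.11 to 0.10 for Chrnb2. MS5 minus Con ran from -0.13 to 0.047 for Chrm3 and from -0.049 to 0.020 for Chrm5. With 5 arrays a group, or 4 without MS2 replicate 4, differences smaller than the intervals given were not detectable, and signals near background limit what the Chrm5 and Chrna3 probes can show.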
